A study of Homo sapiens with 6 samples.

Results

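The alpha-arrestins form a gene family of 6 members in the table, ARRDC1 to ARRDC5 and TXNIP, chosen by gene name out of 58735 genes. The family was picked because ARRDC1 was among the genes with the steepest falls in this same comparison, so the values of ARRDC1 are given as a description with no test. The other 5 members came in by name. Of the 6 members, 5 passed the filter on low counts, as did 16591 genes in all; ARRDC5 did not.

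RNA-seq read counts per gene were measured in 6 libraries of RPE-1 cells, an established human retinal pigment epithelial line. In all of them centrioles were marked by GFP-tagged Cetn2 and PLK4, under a doxycycline-inducible rtTA promoter, was induced with 1 µg/mL doxycycline. The siControl group (3 libraries) received a scramble siRNA and the siSON group (3 libraries) an siRNA against SON, a nuclear speckle protein that helps remove introns from pre-mRNA. The question was how the abundance of these mRNAs differed once SON was depleted under PLK4 induction, and no library without induction was analysed here. Nothing states that the libraries of a group came from separate cultures, so p-values measure only the spread between these libraries. In bulk RNA, fewer cells with a transcript and less transcript per cell cannot be told apart.

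Alpha-arrestins are cytoplasmic adaptors built on the arrestin fold. The PY motifs in their tails are bound by the WW domains of NEDD4-family ubiquitin ligases, and the adaptors bring those ligases to membrane proteins, which are then ubiquitinated and taken into the cell. TXNIP also binds thioredoxin and limits glucose uptake, and TXNIP and ARRDC4 are well known targets of the glucose-responsive factor MondoA (gene MLXIP) with its partner MLX. ARRDC1 recruits the ESCRT-I protein TSG101 to the plasma membrane, where small vesicles bud outward. ARRDC3 has been studied as an adaptor for the beta2-adrenergic receptor and integrin beta4.

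The promoter windows of the 3 members that were lower in siSON are shown first. Any part of MondoA, named above as a regulator of TXNIP and ARRDC4, in their falls was not tested. Each window runs from 250 bases before to 50 bases after a RefSeq transcript start on GRCh38.p14 and is written 5′ to 3′ on the strand of the gene. The TXNIP window is chr1:145996530-145996829 (minus strand), the ARRDC4 window is chr15:97960453-97960752 (plus strand) and the ARRDC1 window is chr9:137605436-137605735 (plus strand). Capitals mark matches on either strand to CACGNG followed after 5 bases by another CACGNG (a pair of E-boxes spaced as in a carbohydrate response element), CACGTG (the palindromic E-box), CCAAT (the box bound by NF-Y) and GTAAACA (the forkhead core).
TXNIP: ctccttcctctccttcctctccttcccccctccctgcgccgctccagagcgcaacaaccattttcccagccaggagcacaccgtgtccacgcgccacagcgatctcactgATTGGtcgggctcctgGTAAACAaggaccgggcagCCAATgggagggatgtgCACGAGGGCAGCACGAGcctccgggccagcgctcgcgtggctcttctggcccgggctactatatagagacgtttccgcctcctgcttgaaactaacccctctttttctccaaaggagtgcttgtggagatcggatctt
ARRDC4: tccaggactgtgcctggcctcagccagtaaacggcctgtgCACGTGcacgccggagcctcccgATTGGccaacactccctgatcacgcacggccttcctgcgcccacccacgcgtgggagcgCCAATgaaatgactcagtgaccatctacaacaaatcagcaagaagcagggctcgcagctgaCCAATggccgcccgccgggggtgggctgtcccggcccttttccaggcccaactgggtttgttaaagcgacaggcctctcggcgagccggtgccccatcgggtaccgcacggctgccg
ARRDC1: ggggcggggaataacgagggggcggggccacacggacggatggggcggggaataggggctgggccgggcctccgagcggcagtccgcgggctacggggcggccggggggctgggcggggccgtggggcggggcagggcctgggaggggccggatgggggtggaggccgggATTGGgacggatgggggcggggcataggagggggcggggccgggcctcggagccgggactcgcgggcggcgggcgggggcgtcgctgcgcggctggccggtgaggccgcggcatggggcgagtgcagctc

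The TXNIP window held the paired E-box from 88 to 72 bases before the start, and those letters were found in 20 of 35116 promoter windows (0.0570%). It also held CCAAT letters at 2 places, which 10.8% of windows have at least, and the forkhead core, found in 3.42% of windows. The ARRDC4 window held CCAAT letters at 3 places (3.26% of windows have as many or more) and the palindromic E-box from 210 to 205 bases before the start (7.26% of windows). It did not hold the paired E-box letters. ARRDC1 had 1 CCAAT match, as 34.6% of windows have at least, in a window with 81.3% G and C, above 98.4% of all windows. Among the members that rose, ARRDC2 and ARRDC3 have 2 windows each. The second ARRDC2 window and the first ARRDC3 window held 1 CCAAT match apiece, the second ARRDC3 window held the forkhead core, and the first ARRDC2 window and the second of 2 TXNIP windows held none of these letters. A match describes the letters only. Of the 16 tested genes with the paired E-box letters in a window, TXNIP among them, 6 were called higher and 5 lower in siSON. Of all genes tested, 35.2% were called higher and 36.5% lower. The median log2 fold change of these 16 genes was -0.03, equal to the -0.03 of all genes tested.

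**Figure D1:**
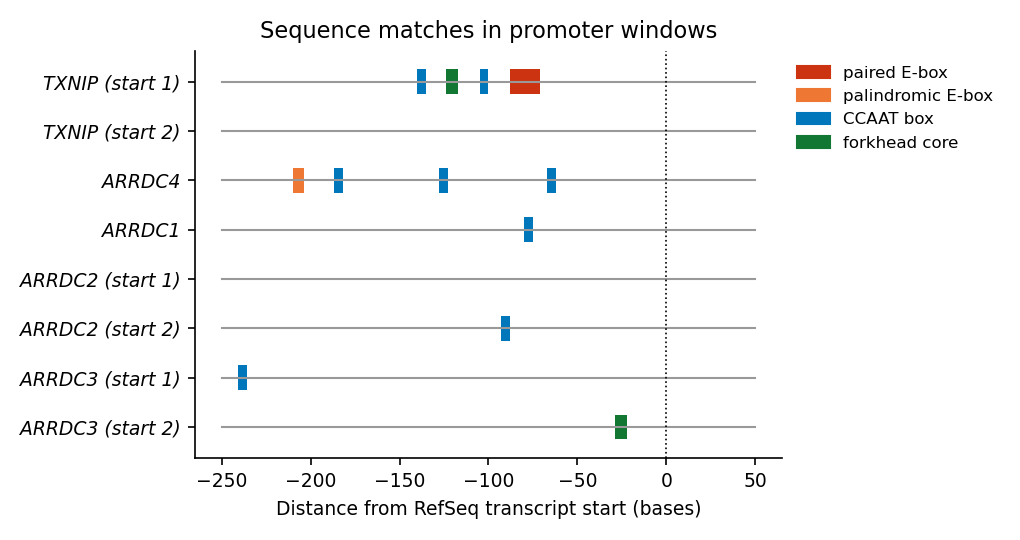
Positions of sequence matches in the 8 RefSeq promoter windows of 5 alpha-arrestin genes; the x axis is the distance in bases from the transcript start (dotted line), each row is a window and coloured bars are matches on either strand. The TXNIP window at its first start holds the paired E-box (from 88 to 72 bases before the start), and the ARRDC4 window holds 3 CCAAT matches and the palindromic E-box.

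The libraries held 54572365 to 69764836 counts. SON itself kept 22.8% of its control level (log2 fold change -2.14, edgeR adjusted p = 6.78e-10), and its groups did not overlap. PLK4, induced in both groups, had 177 ± 12.4 CPM in siControl and 138 ± 23.3 CPM in siSON (SD, n = 3 each). It was called lower (log2 fold change -0.36, edgeR adjusted p = 0.0143). CETN2 had 624 ± 25.1 and 814 ± 42.4 CPM and was called higher (log2 fold change 0.38, edgeR adjusted p = 5.89e-05). Any part of the lower PLK4 level in the results was not tested. The keratins KRT8 and KRT18 were abundant (764 to 863 CPM summed in siControl and 1331 to 1392 in siSON) and both were called higher, while of 8 markers of mature pigment epithelium only 4 passed the filter, and RPE65, RLBP1, TYR and TYRP1 did not. Of those 4, BEST1 and MITF were called higher and PMEL and SERPINF1 lower (median log2 fold change -0.39), with a summed level over the 8 markers of 32.3 to 33.5 CPM in siControl and 40.6 to 46.6 CPM in siSON; their part in the results was not tested. Among 4 leukocyte and endothelial markers 3 were tested and 2 called lower. Their summed level was 5.84 to 7.02 CPM in siControl and 3.74 to 4.89 CPM in siSON. CDH5 was at 0 in siSON replicates 1 and 2, and the part of these markers in the results was not tested. All of these marker calls stand beside 71.7% of all genes tested that were called (35.2% higher and 36.5% lower).

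The family divided after SON knockdown: TXNIP and ARRDC4 fell to 24.02% and 19.7% of control, ARRDC2 and ARRDC3 rose to 172% and 161%, ARRDC1 stood at 1.37% and ARRDC5 was all but absent. Of the 4 tested members other than ARRDC1, 2 were called higher and 2 lower by edgeR's quasi-likelihood test at an adjusted p under 0.05, beside 71.7% of all genes tested that were called (35.2% higher and 36.5% lower). For all 5 tested members the siSON and siControl libraries did not overlap, as for 75.1% of all genes tested. With background shares this high, the counts are not a result about the family, and what follows concerns the size and direction for each gene. Levels are in CPM, reads of a gene per 1e6 reads after TMM scaling, and a positive log2 fold change means a higher level in siSON.

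**Figure D2:**
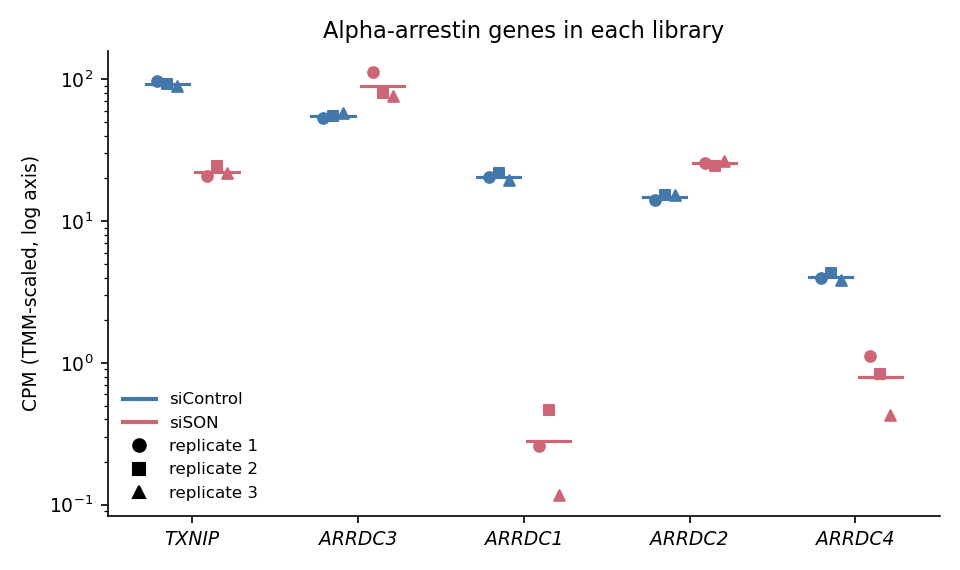
CPM of the 5 tested alpha-arrestin genes (log axis) in each of the 6 libraries; symbols are replicates and horizontal lines are group means of 3 libraries. The siSON points lie below the siControl points for TXNIP, ARRDC1 and ARRDC4 and above them for ARRDC2 and ARRDC3, with no overlap; ARRDC5, with 1 count in all, is not drawn.

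TXNIP (ENSG00000265972; GRCh38 chromosome 1, 145992435 to 145996600, minus strand, 8 exons), the thioredoxin-binding member, was the most abundant alpha-arrestin of the control cells. Its level was 96.6, 92.4 and 90.3 CPM in the siControl libraries, listed here and throughout by replicate number, against 20.7, 24.4 and 22.0 CPM in the siSON libraries. The lowest control library was 3.71 times the highest siSON library. On the log2 scale it fell by 2.06, with an SE of 0.07 and an edgeR adjusted p of 2.47e-09. No other annotated gene overlaps TXNIP.

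ARRDC4 (ENSG00000140450; GRCh38 chromosome 15, 97960698 to 97973838, plus strand, 8 exons), its closest companion in glucose-responsive transcription, was a low-level transcript that fell as well. It had 3.96, 4.28 and 3.87 CPM in siControl and 1.12, 0.834 and 0.433 CPM in siSON, from 65, 43 and 22 reads. All siControl libraries lay above all siSON libraries, and the siSON libraries spread more widely, 0.796 ± 0.345 CPM against 4.03 ± 0.216 CPM (SD, n = 3 each). The fall was -2.32 in log2 units (SE 0.26), at an edgeR adjusted p of 8.60e-06. The count ratio of ARRDC4 to TXNIP, which needs no scaling between libraries, was 0.0409, 0.0463 and 0.0428 in siControl and 0.0540, 0.0342 and 0.0197 in siSON. These ranges overlapped, so any difference between the falls of the 2 genes was within the spread of the libraries.

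ARRDC1 (ENSG00000197070; GRCh38 chromosome 9, 137605654 to 137615360, plus strand, 8 exons), the member that recruits TSG101, was counted 1433, 1378 and 1449 times in siControl and 15, 24 and 6 times in siSON. In CPM this was 20.5, 21.7 and 19.4 against 0.258, 0.465 and 0.118. The lowest control library was 41.7 times the highest siSON library, and the 3 siSON libraries differed among themselves by up to 4-fold in reads. The log2 fold change was -6.18 (SE 0.23), number 43 from the lowest of 16591 genes, and this value is what brought the family to attention.

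ARRDC2 (ENSG00000105643; GRCh38 chromosome 19, 18001132 to 18014102, plus strand, 8 exons) rose evenly. It had 14.0, 15.4 and 15.3 CPM in siControl and 25.6, 24.5 and 26.5 CPM in siSON, groups that lay clear of each other. In log2 units the rise was 0.78 (SE 0.08), at an edgeR adjusted p of 3.63e-06. Its exons share 442 bp with AC020904.3 on the other strand, which was near 0 (0.0519 CPM in siControl and 0.00656 CPM in siSON).

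ARRDC3 (ENSG00000113369; GRCh38 chromosome 5, 91368724 to 91383359, minus strand, 8 exons), the adaptor studied with the beta2-adrenergic receptor, rose less evenly. It had 53.5, 55.4 and 57.5 CPM in siControl and 112.8, 80.2 and 75.8 CPM in siSON. All siSON libraries lay above all control libraries, and replicate 1 of siSON stood above the other two. The rise in log2 units was 0.69 (SE 0.13) at an edgeR adjusted p of 0.000999, or 0.50 at an edgeR adjusted p of 6.64e-06 once siSON replicate 1 was left out. The ratio of ARRDC2 to ARRDC3 counts, 0.262, 0.278 and 0.266 in siControl and 0.227, 0.305 and 0.350 in siSON, overlapped between the groups.

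ARRDC5 (ENSG00000205784; GRCh38 chromosome 19, 4890437 to 4902867, minus strand, 3 exons) had 0 counts in 5 libraries and 1 count in siSON replicate 1. A count of 0 allows a level of up to 3 counts, which is 0.0402 to 0.0590 CPM over the 6 libraries and covers counting error only. No difference was detectable at this depth.

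Per kilobase of annotated exon (FPKM), the order in siControl was TXNIP (25.7 ± 0.884), ARRDC3 (11.2 ± 0.405), ARRDC1 (5.37 ± 0.299), ARRDC2 (3.21 ± 0.166) and ARRDC4 (0.991 ± 0.0531), each SD with n = 3. In siSON the order was ARRDC3 (18.2 ± 4.10), TXNIP (6.17 ± 0.508), ARRDC2 (5.51 ± 0.224), ARRDC4 (0.195 ± 0.0848) and ARRDC1 (0.0734 ± 0.0457). In siControl no 2 neighbours in that order overlapped. In siSON the lowest TXNIP library (5.723 FPKM) lay next to the highest ARRDC2 library (5.719 FPKM), and ARRDC4 and ARRDC1 overlapped. With the length of 1 representative transcript in place of all exons, a choice made after seeing the data, ARRDC1 (12.2 to 13.7 per kilobase) overlapped ARRDC3 (12.8 to 13.7) in siControl. On that scale the siSON order of TXNIP and ARRDC2 turned, with ARRDC2 at 9.77 to 10.6 per kilobase and TXNIP at 7.09 to 8.33, so the ranks of ARRDC1, TXNIP and ARRDC2 rest on the length used.

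TXNIP held the largest share of the family in every siControl library and ARRDC3 in every siSON library. TXNIP held 56.9%, 54.5% and 54.3% of the length-corrected family counts in siControl and 16.6%, 23.5% and 22.2% in siSON. The difference of the means, siSON minus siControl, was -34.4 percentage points. Whether these shares pass 50% depends on the length used: with the representative transcript TXNIP held 50.6%, 48.1% and 48.3% in siControl and ARRDC3 held 60.2%, 50.7% and 49.7% in siSON. An exact 2-sided permutation test of the TXNIP share over the libraries returned p = 0.1, and 3 against 3 cannot go lower. The family sum includes ARRDC1, picked for its fall, so all these shares rest partly on the value used for the choice. No conclusion is drawn from this p. ARRDC3 went from 24.2% ± 1.14 to 59.8% ± 5.63 and ARRDC2 from 6.91% ± 0.404 to 18.5% ± 2.46 (SD, n = 3 each). The share of ARRDC1 went from 11.6% ± 0.541 to 0.245% ± 0.162. The count ratio of TXNIP to ARRDC3, which leaves ARRDC1 out, was 1.80, 1.67 and 1.57 in siControl and 0.184, 0.304 and 0.290 in siSON. The length-corrected sum of the family was 46.5 ± 0.533 FPKM in siControl and 30.1 ± 3.83 FPKM in siSON (SD, n = 3 each).

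**Figure D3:**
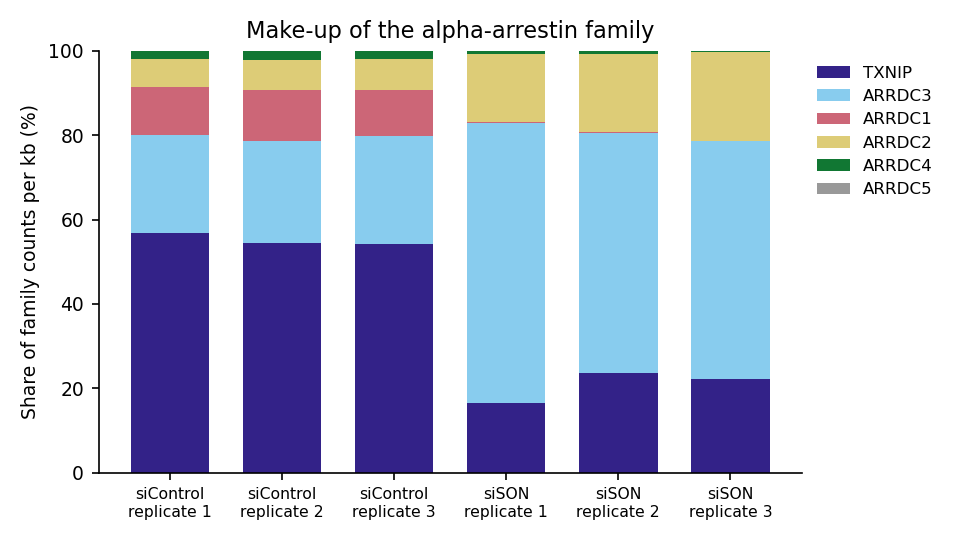
Share of the length-corrected family counts (percent, y axis) held by each alpha-arrestin gene in each of the 6 libraries, as stacked bars. TXNIP takes 54.3% to 56.9% of the siControl bars and 16.6% to 23.5% of the siSON bars, while ARRDC3 takes 56.3% to 66.3% of the siSON bars.

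Gene structure, which played no part in choosing the members, also set them apart. In GENCODE release 29 the representative transcripts of the 5 expressed members all have 8 exons, and that of ARRDC5 has 3. The 7 introns of ARRDC1 measure 7060, 453, 104, 262, 84, 83 and 73 bp from first to last, so the last 3 are the shortest of the family. TXNIP has introns of 540, 112, 112, 128, 106, 113 and 129 bp. The median intron of ARRDC1 (104 bp) and of TXNIP (113 bp) lay at percentiles 1.03 and 1.39 of 14724 tested genes with introns, ARRDC2 (193 bp) at 4.87, ARRDC4 (543 bp) at 17.9 and ARRDC3 (1007 bp) at 29.5. The ARRDC1 transcript has 64.6% G and C, at percentile 95.5, and that of ARRDC2 60.8%, at percentile 87.1. The transcripts of TXNIP (43.9%), ARRDC4 (43.4%) and ARRDC3 (37.6%) were below the median of 48.8%. Short introns were thus found in ARRDC1 and TXNIP, which were lower, and in ARRDC2, which was higher. Counts per gene do not show which introns were removed.

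**Figure D4:**
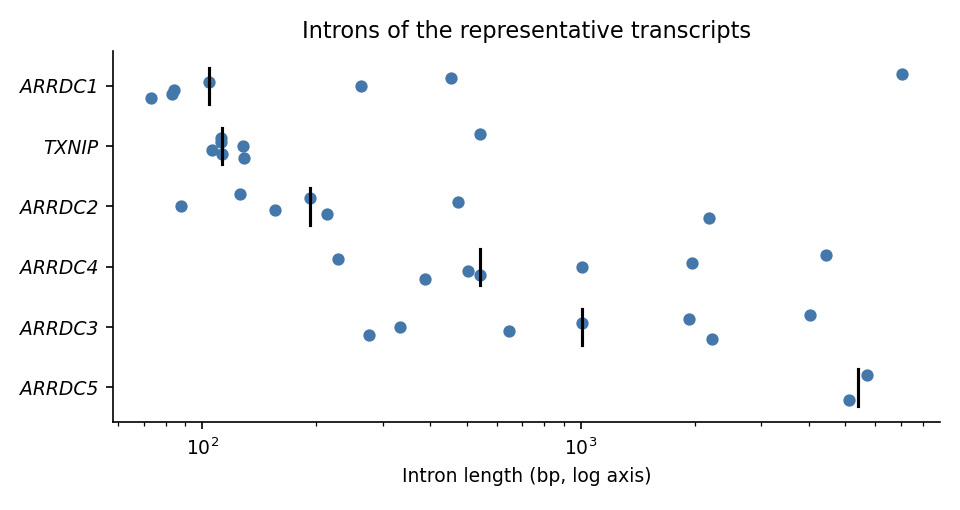
Intron lengths (bp, log axis) of the representative GENCODE 29 transcript of each alpha-arrestin gene; points are introns (spread vertically for visibility) and black bars are medians. ARRDC1 and TXNIP have the shortest medians, 104 and 113 bp, and ARRDC5 has 2 introns of 5696 and 5097 bp.

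The genes around ARRDC1 moved in both directions. Of 9 annotated genes within 100 kb, 6 were tested and 4 called (66.7%, beside 71.7% of all genes tested), 2 higher and 2 lower, with a median log2 fold change of -0.04; with library size alone 6 were called, 2 higher and 4 lower. ARRDC1-AS1, shares 29 bp of exon with ARRDC1 on the other strand and had 9.39, 8.56 and 7.88 CPM in siControl and 1.86, 1.67 and 2.30 CPM in siSON (log2 fold change -2.15, SE 0.15, edgeR adjusted p = 1.82e-07). The count ratio of ARRDC1 to ARRDC1-AS1 was 2.19, 2.53 and 2.46 in siControl and 0.139, 0.279 and 0.0513 in siSON. The sense gene was thus lower by more, a description only, since ARRDC1 was picked for its steep fall. PNPLA7, a phospholipase gene, fell by 2.03 on the log2 scale (edgeR adjusted p = 5.70e-06), and DPH7, of diphthamide synthesis, rose by 0.77 (edgeR adjusted p = 3.36e-06). EHMT1, a histone H3 lysine methyltransferase gene that lies next to ARRDC1-AS1, rose by 0.54 (edgeR adjusted p = 2.02e-05). MRPL41 and ZMYND19 had log2 fold changes of 0.02 and -0.09 (edgeR adjusted p = 0.802 and 0.384), and MRPL41 was negative under library size alone (-0.18) and cyclic loess (-0.09). AL590627.2, which shares 183 bp of exon with ARRDC1 on the same strand, had 0 counts in all libraries. ARRDC3-AS1, which shares 145 bp of exon with ARRDC3 on the other strand, had 22, 26 and 24 counts in siControl and 1, 1 and 9 in siSON, a log2 fold change of -2.30 (SE 0.66, edgeR adjusted p = 0.00869), opposite in sign to ARRDC3. Without siSON replicate 3 it was -4.10 (edgeR adjusted p = 0.000496).

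The genes whose profile over the 6 libraries was most like that of ARRDC1, by the root mean square difference of log2 CPM after subtracting the siControl mean, were IP6K3 (0.43), PPL (0.56), MLXIPL (0.57), PCED1A (0.80) and RAB26 (0.82). They encode an inositol hexakisphosphate kinase, the desmosome-associated periplakin, the glucose-responsive factor ChREBP, an esterase-domain protein and a Rab GTPase. Only PCED1A was well counted, with 31.5, 30.2 and 28.3 CPM in siControl and 0.638, 0.446 and 0.708 in siSON; the other 4 were at most 3.83 CPM in any library, where the small count added before taking logs limits how far a profile can fall. The profiles most like that of TXNIP were those of LMF2 (0.02), ZNHIT6 (0.04) and TCTA (0.04); LMF2, a lipase maturation factor gene, had 136 ± 5.25 and 33.2 ± 3.05 CPM (SD, n = 3 each). These likenesses are mostly one difference between the groups, seen in 6 libraries.

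Partners of the family were followed in 6 lists of 63 genes, of which 58 were tested and 47 called, 35 higher and 12 lower. That is 81.0% called, beside 71.7% of all genes tested (35.2% higher and 36.5% lower). The lists were chosen with earlier results of these data known, so no conclusion is drawn from these shares. Library size alone moved the log2 fold changes of all genes by a median of -0.20, so the split into higher and lower depends partly on the scaling. The alpha-arrestins' ubiquitin ligases and their PY adaptors were mostly higher. Of 10 tested genes of this list 8 rose and 1 fell (90.0% called, beside the 71.7%), with a median log2 fold change of 0.53. With library size alone 7 of them were called, 6 higher and 1 lower. Under cyclic loess 8 were called, 7 higher and 1 lower. WWP2 had 26.7, 26.3 and 26.6 CPM in siControl and 63.9, 58.6 and 58.9 in siSON, all above the controls (log2 fold change 1.19, SE 0.06, edgeR adjusted p = 2.94e-08). ITCH, a ligase that works with ARRDC1 on Notch, averaged 59.7 ± 2.58 CPM in siControl and 102.2 ± 2.67 CPM in siSON (SD, n = 3 each), a rise of 0.78 in log2 units (edgeR adjusted p = 3.11e-07). SMURF1, whose exons share 735 bp with TRRAP on the other strand (97.8 CPM in siControl and 95.5 in siSON), rose by 0.64 (edgeR adjusted p = 1.41e-06). HECW2 was the list's gene that fell, by 0.46 (edgeR adjusted p = 0.00335), and WWP1 had a log2 fold change of 0.07 (edgeR adjusted p = 0.482), which was negative under library size alone and cyclic loess.

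The budding machinery that ARRDC1 recruits moved in both directions. Of 12 tested ESCRT-I, ALIX and VPS4 genes 7 rose, 2 fell and 3 did not pass the test, with a median log2 fold change of 0.44. The share called was 75.0%, near the 71.7% of all genes tested. MVB12A, an ESCRT-I subunit, had 19.2, 19.1 and 22.6 CPM in siControl and 1.36, 1.43 and 1.87 CPM in siSON. Its libraries were clearly separate (log2 fold change -3.71, SE 0.14, edgeR adjusted p = 3.31e-09); BISPR, which shares 607 bp of exon on the same strand, was lower too, at 0.702 and 0.0496 CPM. UBAP1 and VPS37C, alternative ESCRT-I subunits, rose by 0.96 and 0.83 (edgeR adjusted p = 8.10e-08 and 8.58e-07). UBAP1 shares 143 bp of exon with KIF24 on the other strand (23.4 CPM in siControl and 10.2 in siSON). TSG101, the direct partner of ARRDC1, named after its values were seen, averaged 57.2 ± 3.17 CPM in siControl and 74.4 ± 2.66 CPM in siSON (SD, n = 3 each), a rise of 0.38 in log2 units (edgeR adjusted p = 0.000197).

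**Figure D5:**
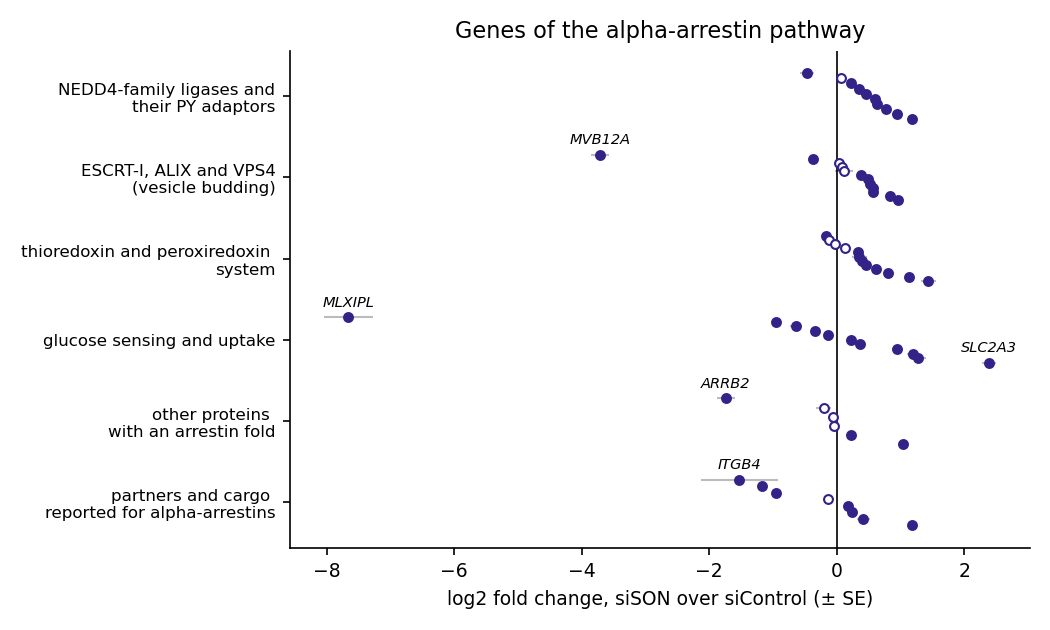
Log2 fold changes, siSON over siControl (x axis, ± SE), of the tested genes in 6 lists of alpha-arrestin partners; filled points passed an edgeR adjusted p under 0.05 and open points did not, and genes past 1.5 in size are named. Most ligase genes lie right of 0, and MLXIPL (-7.66) and MVB12A (-3.71) lie far to the left.

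Around TXNIP, the thioredoxin and peroxiredoxin genes were largely higher while TXNIP fell. Of 12 tested genes 8 rose and 1 fell (75.0% called, near the 71.7% of all genes tested), with a median log2 fold change of 0.38. With library size alone, and likewise with cyclic loess, 6 were higher and 3 lower. SRXN1, which repairs oxidised peroxiredoxins, had 3.58, 4.04 and 4.47 CPM in siControl and 10.8, 11.1 and 11.0 in siSON (log2 fold change 1.44, SE 0.11, edgeR adjusted p = 4.82e-07). The peroxiredoxin genes PRDX4 and PRDX1 rose by 1.13 and 0.80 (edgeR adjusted p = 4.05e-08 and 5.51e-08). PRDX1 shares 379 bp of exon with MMACHC on the other strand, which was higher too, at 10.4 CPM in siControl and 17.6 in siSON. TXN, the thioredoxin that TXNIP binds, named after its values were seen, had a log2 fold change of 0.40 (edgeR adjusted p = 1.70e-05) that did not pass under cyclic loess (0.07, limma adjusted p = 0.188).

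All 11 tested genes of glucose sensing and uptake were called (beside 71.7% of all genes tested), 6 higher and 5 lower. Their median log2 fold change was 0.22. Under cyclic loess 9 were called, 4 higher and 5 lower, and with 1 library left out 9 to 11 were called. MLXIPL, the gene of ChREBP and a paralog of MondoA, had 203, 195 and 212 counts in siControl and 0, 1 and 1 in siSON. Its siControl level was 235 times its siSON level (exact 95% counting interval 64.8 to 1946). The fitted log2 fold change of -7.66 (edgeR adjusted p = 2.09e-08) depends on the small count added in the fit. SLC2A3, a glucose transporter gene, had 69.2, 53.1 and 54.99 CPM in siControl and 349.2, 284.4 and 296.0 in siSON, a rise of 2.39 (SE 0.11, edgeR adjusted p = 4.05e-08). SLC2A1, the transporter that TXNIP helps to remove from the membrane, had 472, 478 and 481 CPM in siControl and 241, 248 and 251 in siSON, and fell by 0.95 (edgeR adjusted p = 1.33e-08); it shares 128 bp of exon with SLC2A1-AS1 on the other strand, at 1.83 and 1.32 CPM. HK2, a hexokinase gene, and SLC2A12 rose by 1.20 and 1.279 (edgeR adjusted p = 1.19e-06 and 1.86e-06). SLC2A12 shares 1736 bp of exon with TBPL1 on the other strand, which was higher too, at 18.2 CPM in siControl and 30.4 in siSON. Any part of shared reads in the rise of SLC2A12 was not tested. MLXIP and MLX, named after their values were seen, had log2 fold changes of 0.37 and -0.34 (edgeR adjusted p = 0.000171 and 0.000434), and MLXIP did not pass under cyclic loess (0.07, limma adjusted p = 0.302).

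Among 6 tested genes of other arrestin-fold proteins 2 rose, 1 fell and 3 did not pass the test. The median log2 fold change of the 6 was -0.05. The 3 of 6 called were a smaller share than the 71.7% called of all genes tested (35.2% higher and 36.5% lower). With library size alone 1 was higher and 4 were lower, and with cyclic loess 1 was higher and 3 were lower. ARRB2, the gene of beta-arrestin 2, had 13.3, 13.6 and 15.1 CPM in siControl and 3.19, 4.91 and 4.51 in siSON (log2 fold change -1.74, SE 0.15, edgeR adjusted p = 9.46e-07). VPS26C, a retriever subunit gene, rose by 1.04 (edgeR adjusted p = 2.29e-07). VPS26A, of the retromer, rose by 0.22 (edgeR adjusted p = 0.00775), a call lost with library size alone (0.03, edgeR adjusted p = 0.696) and without siControl replicate 2 (0.17, edgeR adjusted p = 0.0609), while under cyclic loess its sign turned (-0.06).

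Of 8 tested genes reported as partners or cargo of alpha-arrestins 4 rose and 3 fell, with a median log2 fold change of 0.02. The share called was 87.5%, beside 71.7% of all genes tested. With library size alone 1 was higher and 4 lower, and with cyclic loess 2 were higher and 3 lower. Without siControl replicate 2 only 4 were called, 2 in each direction. YAP1, a coactivator of the Hippo pathway, averaged 149 ± 5.30 CPM in siControl and 337 ± 0.215 CPM in siSON (SD, n = 3 each), a rise of 1.18 in log2 units (edgeR adjusted p = 5.44e-09). NOTCH1 had 99.0, 106.4 and 101.7 CPM in siControl and 41.5, 47.2 and 47.9 in siSON (log2 fold change -1.17, SE 0.07, edgeR adjusted p = 5.32e-08). ITGB4, the integrin beta4 gene, was scarcely expressed at 0.377 ± 0.232 and 0.129 ± 0.0785 CPM (SD, n = 3 each), its groups overlapped, and its call (log2 fold change -1.53, edgeR adjusted p = 0.0417) was lost under cyclic loess (-0.71, limma adjusted p = 0.290). The ITGB4 call was also lost without siControl replicate 2 or 3 and without siSON replicate 2 or 3 (log2 fold change -1.78 to -0.94).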

How the data were processed

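The deposited table holds raw counts, as whole numbers, for each gene in each of the 6 libraries. The submitters' processing notes name hg38, cutadapt 1.16, STAR 2.5.2a, featureCounts 1.6.2 and DESeq2 1.28.1; the annotation release, strand setting and treatment of multi-mapping reads are not given in the sources used here, so counts of overlapping genes and paralogs are uncertain. All 16591 tested identifiers were found in GENCODE 29 (GRCh38), which gave positions, exons and lengths; promoter sequences are RefSeq's (GRCh38.p14), where 5 of the 6 members had entries.

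The analysis used edgeR 4.0.16 under R 4.3.3: filterByExpr (minimum count 10), TMM scaling, a robust quasi-likelihood fit with group as predictor, and Benjamini-Hochberg adjustment over all genes tested. SE is the absolute log2 fold change over the square root of F. FPKM is CPM per kilobase of merged exons. Columns were matched to libraries by title. Scripts were tested on simulated data. Alternatives used DESeq2 1.42.0, limma 3.58.1 (voom, and cyclic loess), other scalings and filters, a replicate block, and leaving out each library. Members, partner lists and motifs were chosen with earlier results of these data known. Named by rule were the members, SON, PLK4 and CETN2, the overlapping genes and neighbours of ARRDC1, the nearest profiles, and in each list the 3 smallest adjusted p-values plus called genes changed at least 2-fold. No replicate pair agreed within sampling noise (chi-square per degree of freedom 7.16 to 26.1).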

Additional observations from a re-analysis of the deposited data

How the results depend on the processing

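All 4 tested members other than ARRDC1 kept their direction and passed under each of the 14 alternatives, with log2 fold changes of -2.25 to -1.99 for TXNIP, -2.65 to -2.02 for ARRDC4, 0.58 to 0.84 for ARRDC2 and 0.48 to 0.81 for ARRDC3; ARRDC1 ranged from -6.71 to -5.83. Leaving out 1 library at a time gave -2.11 to -1.99, -2.65 to -2.03, 0.71 to 0.82, 0.50 to 0.81 and -6.71 to -5.83 in that order. Library size alone moved the log2 fold changes of all genes by a median of -0.20. It called 5 of the 6 arrestin-fold genes in place of 3; the cause was not tested. The partner and cargo list had 4 to 7 calls with 1 library left out. The fall in the TXNIP share, -34.4 percentage points, was -29.5 with the representative transcript's length, chosen after seeing the data; there the lengths alone differ. With 6 to 24 reads of ARRDC1 per siSON library, depth limits its residual level.

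Replicate numbers are shared by the groups, but what they stand for is not stated. The deviations of same-numbered libraries from their group means correlated at 0.0461 to 0.194, over 0.1 in 2 of 3 pairs. Each of the 6 libraries correlated best with its own number. In the column headers, same-numbered libraries also carry consecutive sample numbers. These are hints only, and neither states a pairing. With a replicate block the log2 fold changes were -2.06 for TXNIP, -2.36 for ARRDC4, 0.78 for ARRDC2, 0.67 for ARRDC3 and -6.19 for ARRDC1, 12313 genes were called in place of 11888, and the list counts stayed within 1.5 times.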

Other observations

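ARRDC1 joins short introns to a GC-rich transcript. A description made after its values were seen covers the 36 tested genes, ARRDC1 included, whose median intron is no longer and whose transcript GC content is no lower than those of ARRDC1. Of these, 72.2% were called lower and 11.1% higher in siSON by edgeR, beside 36.5% and 35.2% of all genes tested, and their median log2 fold change was -1.10 beside -0.03. TXNIP, with a GC content of 43.9%, and ARRDC2, with a median intron of 193 bp, are not among them. ARRDC1, picked for its fall, set both limits, so the comparison is no test. Any part of intron length or GC content in the fall of ARRDC1 was not tested.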
